A study of Homo sapiens with 18 samples.

Results

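The genes described here are the 43 translation initiation factor genes measured in U251 cells, an established human glioblastoma line, after silencing of MPS1. MPS1, encoded by TTK, is a kinase of the mitotic spindle checkpoint. Members were taken by symbol: every gene of the array annotation whose symbol is EIF followed by a digit, without the Argonaute genes once named EIF2C, pseudogenes and probe sets that name several genes. Each gene is represented by its probe set with the highest mean over the 18 arrays. All 43 passed the filter on dim probe sets, so they are 43 of the 7828 genes tested and of the 11963 genes that have a probe set naming 1 gene.

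The series holds 9 groups of 2 Affymetrix expression arrays each. Cells were untransfected (Control), transfected with a negative siRNA (siNeg) or transfected with an siRNA against MPS1 (siMPS1), and RNA was taken at 6, 24 and 48 h. Transfected cells received 2 pmol of siRNA, and the comparison with siNeg shares that transfection while the comparison with Control does not. All groups come from 1 cell line, and no label states that paired arrays hold RNA of different cultures, so p-values measure the spread between arrays, which may be technical. Levels are given as log2(signal + 3), called the log2 signal below. A difference is a log2 fold change on that scale with its SE, from limma on 9 group means (n = 2 arrays per group), and a gene is called when its Benjamini-Hochberg adjusted p over all 7828 genes is under 0.05. In bulk RNA, fewer cells of a type and less RNA per cell cannot be told apart.

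Replicate arrays correlated at 0.983 to 0.990 over the 7828 genes tested, which leave out dim probe sets, as a description, and no pair was identical. The TTK difference from siNeg was -1.43 (SE 0.21, adjusted p = 8.04e-04) at 6 h, -1.88 (adjusted p = 8.80e-06) at 24 h and -2.30 (adjusted p = 2.33e-07) at 48 h. Of 10 astrocyte and glioma markers, VIM, CD44, NES, SOX2 and FABP7 were above the array median in all 18 arrays. GFAP was above it in 3, and 4 others, S100B, OLIG2, AQP4 and ALDH1L1, in none. None of 5 blood, 6 epithelial or 4 endothelial markers on the array was above the median in any array. Of 5 neuronal genes on the array, SYT1 and GAD1 were above it in all 18, MAP2 in 5, and SNAP25 and STMN2 in none.

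Translation of most messenger RNAs starts when eIF4E binds the cap and, with the scaffold eIF4G and the helicase eIF4A, recruits a small ribosomal subunit that carries eIF1, eIF1A, eIF3, eIF5 and the initiator tRNA held by eIF2. After the start codon is found, eIF2 leaves with GDP and must be recharged by eIF2B, and eIF5B joins the large subunit. Phosphorylation of the alpha subunit of eIF2 by stress kinases such as PERK blocks that recharging, and hypophosphorylated 4E-BP proteins block eIF4E; both routes are well known in tumour cells. EIF5A and EIF6 carry initiation factor names although eIF5A acts mainly in elongation and eIF6 in maturation and anti-association of the large subunit.

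Against siNeg, 10 of the 43 genes were called at 6 h (7 higher, 3 lower), 8 at 24 h (2 higher, 6 lower) and 16 at 48 h (6 higher, 10 lower). These counts were 23.3%, 18.6% and 37.2% of the genes, where 7.70%, 10.9% and 29.2% of all genes tested were called. The 43 genes were mostly bright: 32 were among the 1957 tested genes with the highest mean signal, and 1 among the 1957 with the lowest. The share called among genes of like signal was not tested. Differences from the share of all genes, here and below, are thus not read as a trait of the 43 genes. Of all genes, 3.45%, 5.14% and 15.7% were called higher and 4.25%, 5.81% and 13.5% lower. Called in the same direction at 2 or more times were 6 of the 43 genes, EIF1B, EIF2AK3, EIF3D, EIF3H and EIF6 lower and EIF5 higher, where 6.66% of all genes were. The median log2 fold change of the 43 genes was 0.08, 0.01 and -0.10 at the 3 times, and that of all genes 0.01, 0.00 and 0.03. With arrays centred on their medians the calls split into 3 higher and 3 lower at 6 h, 3 and 5 at 24 h, and 3 and 10 at 48 h. For this and the other alternative settings, counts of the 43 genes are given without the share of all genes called. Quantile normalization gave 3 higher and 4 lower at 6 h. The 6 h count was 1 without replicate 2 of siNeg 6 h or of siMPS1 6 h, 3 without siNeg 6 h replicate 1 and 5 without siMPS1 6 h replicate 1. It was 6 without either Control 6 h, either Control 24 h or either siNeg 24 h array. At 24 h, dropping a siNeg 24 h array left 5 calls and dropping siMPS1 24 h replicate 2 left 4. At 48 h, dropping siMPS1 48 h replicate 2 left 9.

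Against Control, 7 genes were called at 6 h (4 higher, 3 lower; 16.3%, where 16.6% of all genes were called), 5 at 24 h (1 higher, 4 lower; 11.6%, against 12.7%) and 16 at 48 h (5 higher, 11 lower; 37.2%, against 27.5%). Of all genes, 9.29%, 5.48% and 15.3% were called higher and 7.28%, 7.19% and 12.2% lower. With arrays centred on their medians the calls of the 43 genes became 0 higher and 19 lower, 6 and 4, and 2 and 12 (share of all genes not given). That centring moved the median of all genes at 6 h from 0.04 to -0.16. The 6 h count was 2 without Control 6 h replicate 2 and 4 without Control 6 h replicate 1 or siMPS1 6 h replicate 2. The 48 h count was 8 without Control 48 h replicate 1 and 10 without either siMPS1 48 h array. The comparisons with siNeg and with Control share the siMPS1 arrays. Called in the same direction in both were EIF2AK3, EIF3B and EIF4EBP1 at 6 h (6.98% of the 43 genes, 4.29% of all genes) and EIF2AK3, EIF3H and EIF6 at 24 h (6.98%, against 6.17%). At 48 h there were 9: EIF2B2, EIF2D, EIF2S3, EIF3H, EIF4E, EIF5A and EIF6 lower, and EIF3J and EIF4E2 higher (20.9%, against 16.5%).

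The negative siRNA itself left few calls at the earlier times. EIF2S3 was the 1 gene called between siNeg and Control at 6 h (2.33% of the genes, 3.82% of all genes called) and EIF5A the 1 gene at 24 h (2.33%, against 0.933%). At 48 h EIF4H, EIF2AK1, EIF4B and EIF5A were higher and EIF2AK3 lower in siNeg (5 genes, 11.6%, against 12.9%). Of all genes, 2.84%, 0.460% and 6.82% were called higher and 0.984%, 0.473% and 6.11% lower at the 3 times. At an unadjusted p under 0.05 in limma, 11 and 10 of the 43 genes differed at 6 and 24 h. The share of all genes at that threshold is not given, so these counts are not read as a trait of the 43 genes. With median centring, 0 of the 43 genes were called higher and 16 lower at 6 h. At 24 h and again at 48 h, 2 were called higher and 1 lower. The median of all genes at 6 h moved from 0.02 to -0.13, and the share of all genes called under that centring is not given. The 6 h call was lost without either Control 6 h, either siNeg 6 h or either siNeg 24 h array, or without Control 48 h replicate 2 (0 genes each). The 24 h count was 0 without Control 24 h replicate 1 and 2 without either siNeg 48 h or either siMPS1 24 h array. The 48 h count was 1 without Control 48 h replicate 1 and 2 without siNeg 48 h replicate 1.

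**Figure D1:**
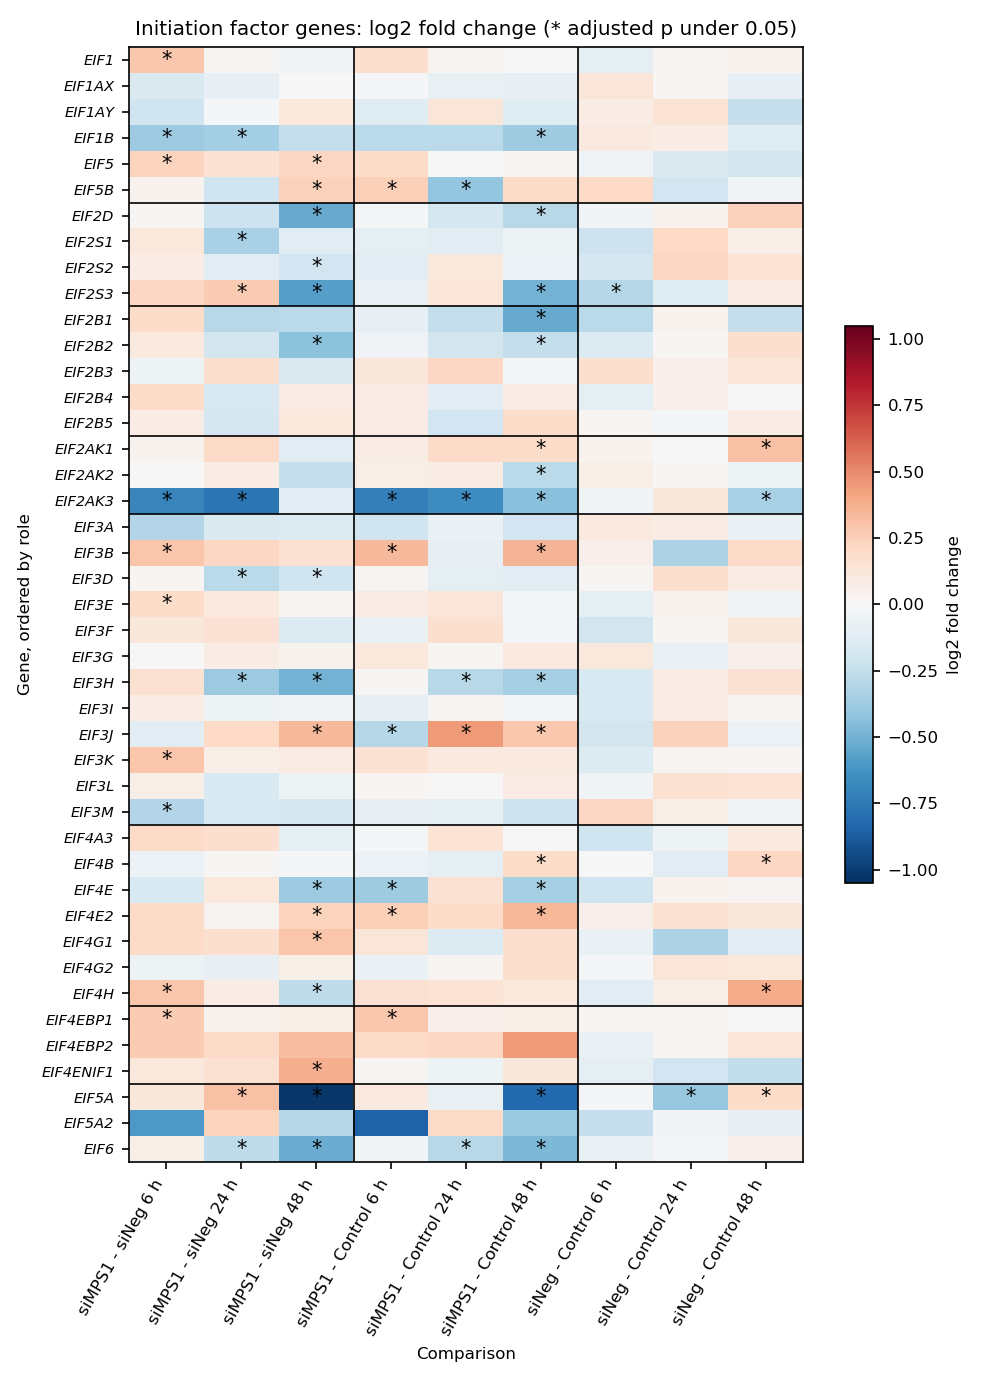
The log2 fold change of each of the 43 genes (rows, ordered by role) in the 9 comparisons between treatments at the same time (columns), with colour from blue (lower) to red (higher) and an asterisk where the adjusted p was under 0.05. The darkest called cells are EIF5A at 48 h, at -1.02 against siNeg and -0.82 against Control, and EIF2AK3 at 6 and 24 h.

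EIF5A had the smallest p of the 43 genes at 48 h. Its protein carries the amino acid hypusine and helps ribosomes past difficult peptide bonds. At 48 h its log2 signal was 9.65 and 9.76 in the siMPS1 arrays, 10.74 and 10.70 in siNeg and 10.52 and 10.53 in Control. The siMPS1 arrays lay below the other 4 with no overlap; non-overlap in that direction was common, at 29.1% of all genes against siNeg and 27.1% against Control. EIF5A fell by 1.02 against siNeg (SE 0.06, adjusted p = 6.99e-10), to 0.495 of the siNeg signal, and stood 7th of 7828 genes by p. Against Control it fell by 0.82 (SE 0.06, adjusted p = 1.28e-08). Both calls held in all 28 alternative settings, 18 of which left out 1 array and 10 of which changed the processing (other settings from here on). Of the 103 calls of members in all comparisons, 37 held in all 28. Leaving out an array of a group not compared leaves the log2 fold change as it is and alters only the shared spread. Averaging probe sets cannot alter the log2 fold change of a gene with 1 probe set. Among such genes are EIF2AK3, EIF6, EIF2S3, EIF3H, EIF2B2 and EIF2D.

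The EIF5A pattern was different at 24 h. The siMPS1 arrays read 10.37 and 10.43, close to Control at 10.51 and 10.45, while both siNeg arrays read 10.08. EIF5A was thus 0.31 higher in siMPS1 than in siNeg (SE 0.06, adjusted p = 0.00125), and the difference from Control was -0.08 (adjusted p = 0.378). It was siNeg that differed from Control, by -0.40 (SE 0.06, adjusted p = 0.00333), a call lost without Control 24 h replicate 1 (-0.37, adjusted p = 0.0535). At 6 h the 6 arrays lay between 10.09 and 10.26 and nothing was called. In siNeg at 48 h EIF5A was 0.19 above Control (adjusted p = 0.0266), a call lost without any of the 4 arrays compared, with adjusted p of 0.0502 without siNeg 48 h replicate 2 and 0.160 without siNeg 48 h replicate 1, and held in 6 of 10 other settings.

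Other EIF5A probe sets gave smaller differences at 48 h: -0.56 and -0.13 against siNeg and -0.33 and -0.01 against Control, where the brightest gave -1.02 and -0.82. The array's transcript-end controls also moved with siMPS1 at 48 h. The 3′ minus 5′ difference of ACTB probe sets was 0.90 in siMPS1 (0.87 to 0.92), 0.12 in siNeg (0.10 to 0.14) and 0.20 in Control (0.16 to 0.24), and that of GAPDH was 0.29, 0.05 and -0.03. The 18S ribosomal RNA probe set read 10.80 in siMPS1, 9.48 in siNeg and 9.75 in Control at 48 h, and 9.96, 10.62 and 9.93 at 24 h. Their part in these and the other 24 and 48 h results was not tested.

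EIF6, which keeps large ribosomal subunits from joining small ones early, was lower at both later times. At 24 h it read 8.86 and 8.83 in siMPS1, 9.12 and 9.12 in siNeg and 9.13 and 9.14 in Control. At 48 h it read 8.87 and 8.86 in siMPS1, 9.40 and 9.37 in siNeg and 9.29 and 9.38 in Control. The siMPS1 arrays were lowest at both times, and the means of the other groups were higher at 48 h than at 24 h. EIF6 fell against siNeg by 0.27 at 24 h (SE 0.06, adjusted p = 0.00709) and by 0.52 at 48 h (SE 0.06, adjusted p = 5.41e-06). Against Control it fell by 0.29 (adjusted p = 0.00469) and 0.47 (adjusted p = 2.19e-05). The 24 h call against siNeg was lost without siNeg 24 h replicate 1 (adjusted p = 0.0573) or siMPS1 24 h replicate 2 (adjusted p = 0.0572); the other 3 calls held in all 28 settings. At 6 h the arrays were 8.95 and 9.07 in siMPS1 and 8.93 and 8.98 in siNeg, which overlap. EIF5A2, a paralog of EIF5A, was dim and not called between treatments at any time, and 1 array, siMPS1 6 h replicate 2, read 3.25 where its partner read 4.76.

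**Figure D2:**
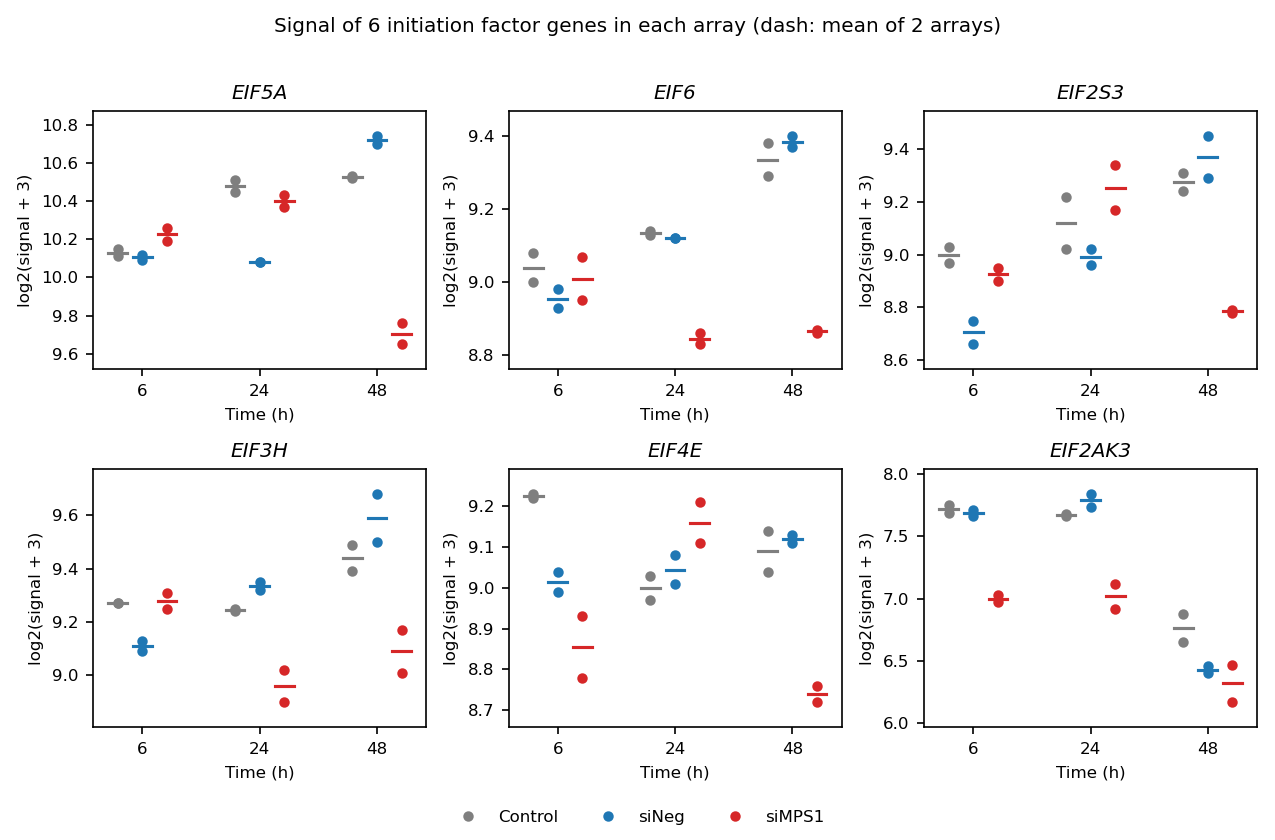
Log2(signal + 3) of EIF5A, EIF6, EIF2S3, EIF3H, EIF4E and EIF2AK3 in each array (points) at 6, 24 and 48 h, with a dash at the mean of the 2 arrays of Control (grey), siNeg (blue) and siMPS1 (red). The siMPS1 arrays lie below the other 48 h arrays for all genes but EIF2AK3, where 1 siMPS1 array at 6.47 reaches the siNeg arrays at 6.40 and 6.46, and EIF2AK3 is separated at 6 and 24 h instead.

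Among the genes that bring the initiator tRNA, all 4 had negative log2 fold changes at 48 h against both siNeg and Control. Of all 43 genes, 26 were below 0 against siNeg and 24 against Control, and the share of all genes tested is not given. Of the 4 genes, 3 were called lower against siNeg, where 13.5% of all genes were. Against Control 2 were, where 12.2% of all genes were, and the value nearest 0 was -0.05. EIF2S3, which encodes the gamma subunit of eIF2 that binds GTP and the tRNA, read 8.79 and 8.78 in siMPS1 at 48 h, 9.45 and 9.29 in siNeg and 9.31 and 9.24 in Control. It fell by 0.58 against siNeg (SE 0.08, adjusted p = 2.02e-05) and by 0.50 against Control (SE 0.08, adjusted p = 1.59e-04), in all 28 settings. At 24 h it was instead 0.27 higher than siNeg (adjusted p = 0.0364), with siMPS1 at 9.17 and 9.34, siNeg at 8.96 and 9.02 and Control at 9.02 and 9.22, which overlaps siMPS1. That 24 h call was lost without either siNeg 24 h array or siMPS1 24 h replicate 2 and held in 7 of 10 other settings. At 6 h siNeg, at 8.75 and 8.66, was below Control, at 8.97 and 9.03, by 0.30 (adjusted p = 0.0416), and siMPS1 read 8.90 and 8.95.

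EIF2D, which delivers tRNA without GTP and works in recycling, read 6.95 and 6.92 in siMPS1 at 48 h, 7.43 and 7.49 in siNeg and 7.20 and 7.25 in Control. It fell by 0.53 against siNeg (SE 0.10, adjusted p = 7.49e-04) and by 0.29 against Control (adjusted p = 0.0422), the second lost without any Control 48 h, siMPS1 48 h or siNeg 24 h array and held in 7 of 10 other settings. EIF2S2, the beta subunit, was called against siNeg alone at 48 h (-0.20, adjusted p = 0.0478), in 5 of 18 settings that left out an array and 5 of 10 others. EIF2S1, the alpha subunit on which the stress kinases act, was called at 24 h: 9.19 and 9.08 in siMPS1, 9.47 and 9.47 in siNeg, 9.22 and 9.29 in Control. It fell by 0.34 against siNeg (SE 0.06, adjusted p = 0.00215) in all 28 settings, with -0.12 against Control (adjusted p = 0.227). Other EIF2S1 probe sets gave -0.58 and -0.36 against siNeg and -0.62 and -0.39 against Control at that time.

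Of the 5 genes for eIF2B, which recharges eIF2 with GTP, EIF2B2 (the beta subunit) was called against siNeg at 48 h. It read 7.66 and 7.65 in siMPS1, 8.10 and 8.08 in siNeg and 7.97 and 7.85 in Control. It fell by 0.43 (SE 0.07, adjusted p = 1.67e-04) and, against Control, by 0.25 (adjusted p = 0.0123), the first in all 28 settings and the second not without Control 48 h replicate 1 or siMPS1 48 h replicate 2. EIF2B1 fell by 0.53 against Control (SE 0.17, adjusted p = 0.0237), but its 2 siMPS1 arrays lay far apart at 8.13 and 7.32, and against siNeg the value was -0.28 (adjusted p = 0.220). The call was lost without either Control 48 h array or siMPS1 48 h replicate 2 and held in 8 of 10 other settings. EIF2B3, EIF2B4 and the catalytic subunit gene EIF2B5 were not called between treatments at any time.

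The eIF2 alpha kinases differed from each other. EIF2AK3 encodes PERK, the endoplasmic reticulum stress kinase. At 6 h it read 7.03 and 6.97 in siMPS1, 7.66 and 7.71 in siNeg and 7.69 and 7.75 in Control, and at 24 h 7.12 and 6.92, 7.74 and 7.84, and 7.68 and 7.66. The siMPS1 arrays were lowest with no overlap at both times. EIF2AK3 fell against siNeg by 0.69 (SE 0.11, adjusted p = 0.00159) and 0.77 (SE 0.11, adjusted p = 1.25e-04), and against Control by 0.72 (adjusted p = 4.61e-04) and 0.65 (adjusted p = 5.40e-04), in all 28 settings.

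By 48 h EIF2AK3 was low in every group: 6.47 and 6.17 in siMPS1, 6.40 and 6.46 in siNeg and 6.88 and 6.65 in Control. In Control it fell by 0.91 from 24 to 48 h (SE 0.11, adjusted p = 1.88e-05). The 48 h difference was -0.11 against siNeg (adjusted p = 0.508), and it turned to 0.04 without siMPS1 48 h replicate 2. Against Control EIF2AK3 fell by 0.44 (adjusted p = 0.00508; lost without Control 48 h replicate 1 or siMPS1 48 h replicate 2), and siNeg fell against Control by 0.34 (adjusted p = 0.0443), a call kept in 7 of 18 settings that left out an array and 6 of 10 others.

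EIF2AK2 encodes PKR, the kinase that senses double-stranded RNA. It was called at 48 h against Control (-0.28, adjusted p = 0.0245), with 7.11 and 7.19 in siMPS1, 7.28 and 7.49 in siNeg and 7.40 and 7.46 in Control. Against siNeg the value was -0.24 (adjusted p = 0.0561), and the call against Control was lost without any of the 4 arrays compared. A second, dimmer EIF2AK2 probe set gave -0.97 and -0.87 at that time. EIF2AK1 encodes HRI, the kinase known from haem deficiency; it was 0.19 above Control in siMPS1 (adjusted p = 0.0353) and 0.31 above Control in siNeg (adjusted p = 0.00404). Averaging its probe sets left 0.10 in siNeg (adjusted p = 0.504) and ended the siMPS1 call, which held in 6 of 10 other settings. The brightest probe set read 9.12 and 8.99 in siMPS1, 9.17 and 9.18 in siNeg and 8.80 and 8.93 in Control, and the siNeg call was lost without Control 48 h replicate 1 (0.25, adjusted p = 0.0666). The siMPS1 call was lost without that array or siMPS1 48 h replicate 1.

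Genes that act with eIF2 alpha phosphorylation were listed separately: phosphatase subunits, regulators of the kinases and targets of the transcription factor ATF4, of which 17 of 18 were tested. Against siNeg 1 was called at 6 h, lower (5.88%, where 4.25% of all genes were called lower); 6 at 24 h, all lower (35.3%, against 5.81%); and 12 at 48 h, 9 higher and 3 lower, or 70.6% where 29.2% of all genes were called. Their median log2 fold change at 48 h was 0.21, where all genes had 0.03. The list was written with earlier results of these data known for some of its genes. Its shares and median, here and in the next paragraph, are thus not read as a trait of the list. Calls of genes in this and the later lists were not followed under the alternative settings. The 48 h rises against siNeg included DDIT3 (CHOP, a stress transcription factor; 1.12, adjusted p = 4.27e-08), CEBPB (0.55, adjusted p = 6.47e-07) and ATF3 (0.77, adjusted p = 4.28e-06). PPP1CA, a catalytic subunit of protein phosphatase 1, fell by 0.94 (adjusted p = 4.40e-07).

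The siNeg arrays themselves stood below Control at 48 h for 6 of these 17 genes (35.3%, where 6.11% of all genes were called lower). ATF3 was lower by 0.98 (adjusted p = 1.54e-06), DDIT3 by 0.78 (adjusted p = 1.15e-05), CEBPB by 0.45 (adjusted p = 3.02e-05) and TRIB3 by 0.46 (adjusted p = 0.00222). Against Control, siMPS1 gave 4 higher and 3 lower at 48 h (41.2% of the list, where 27.5% of all genes were called). The highest log2 fold change among the 17 genes at 48 h was 0.61 against Control, where it was 1.12 against siNeg. ATF4 rose by 0.32 (adjusted p = 9.47e-04) and GCN1 by 0.36 (adjusted p = 0.00137), while PPP1CA fell by 0.69 (adjusted p = 2.18e-05) and CEBPG by 0.52 (adjusted p = 5.14e-04). CEBPB, at 0.10 (adjusted p = 0.189), and ATF3, at -0.21 (adjusted p = 0.0812), were not called against Control.

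**Figure D3:**
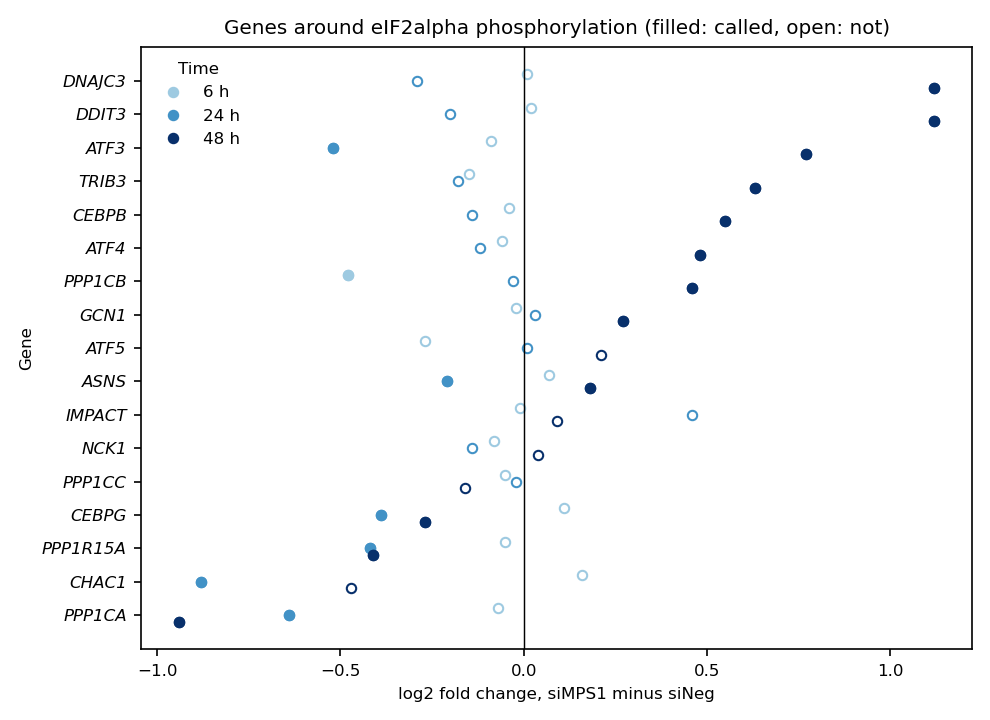
Log2 fold change of siMPS1 minus siNeg for the 17 tested genes around eIF2 alpha phosphorylation (rows), at 6 h (light), 24 h (mid blue) and 48 h (dark), filled where called and open where not. DDIT3 and DNAJC3 lie furthest right at 48 h, at 1.12, and PPP1CA furthest left, at -0.94.

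eIF3, the largest initiation factor, holds the small subunit and bridges to the cap complex. Of its 12 genes, 4 were called against siNeg at 6 h (3 higher, 1 lower), 2 at 24 h (both lower) and 3 at 48 h (1 higher, 2 lower). These are 33.3%, 16.7% and 25.0% of the 12, where 7.70%, 10.9% and 29.2% of all genes were called, so the 48 h share was below that of all genes. EIF3H read 8.90 and 9.02 in siMPS1 at 24 h, 9.35 and 9.32 in siNeg and 9.24 and 9.25 in Control. At 48 h it read 9.01 and 9.17 in siMPS1, 9.68 and 9.50 in siNeg and 9.39 and 9.49 in Control. The siMPS1 arrays were lowest at both times. EIF3H fell against siNeg by 0.38 (SE 0.07, adjusted p = 0.00236) and 0.50 (SE 0.07, adjusted p = 4.56e-05), and against Control by 0.29 (adjusted p = 0.0130) and 0.35 (adjusted p = 0.00163). The 24 h call against Control was lost without either Control 24 h array or siMPS1 24 h replicate 1. At 6 h siMPS1 read 9.25 and 9.31, siNeg 9.13 and 9.09 and Control 9.27 and 9.27, with no call.

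EIF3D, which can bind the cap of some messenger RNAs, fell against siNeg at 24 h by 0.28 (SE 0.06, adjusted p = 0.00582), with 0.21 at 48 h (adjusted p = 0.0112). It read 9.79 and 9.72 in siMPS1, 10.03 ± 0.05 (mean and SD, n = 2) in siNeg and 9.91 and 9.80 in Control at 24 h, and 9.81 and 9.89, 10.06 and 10.07, and 9.97 and 9.97 at 48 h. Against Control it was not called at either time (-0.10 and -0.12). The 24 h call was lost without siNeg 24 h replicate 2 (adjusted p = 0.0696) or siMPS1 24 h replicate 2 (adjusted p = 0.0590), and the 48 h call when siNeg 48 h replicate 2 (0.0506) or siMPS1 48 h replicate 1 (0.0963) was left out. At 6 h EIF3D overlapped between siMPS1, at 10.08 and 10.16, and siNeg, at 10.11 and 10.08.

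EIF3J, a loosely held subunit at the decoding centre, followed another course. In Control it read 10.11 and 10.13 at 6 h, 9.42 and 9.37 at 24 h and 9.44 and 9.63 at 48 h. It fell in Control by 0.73 between 6 and 24 h (SE 0.08, adjusted p = 3.66e-07). In siMPS1 it stayed within a narrow range, at 9.88 and 9.76, 9.86 and 9.83, and 9.88 and 9.76. Against Control it was thus lower at 6 h (-0.30, adjusted p = 0.0121) and higher at 24 h (0.45, adjusted p = 6.37e-04) and 48 h (0.28, adjusted p = 0.0103). Against siNeg, at 9.99 and 9.86, 9.63 and 9.64, and 9.39 and 9.57, it was called at 48 h (0.34, SE 0.08, adjusted p = 0.00253). The 6 h call was lost without either Control 6 h array or siMPS1 6 h replicate 2, with adjusted p up to 0.120. The 48 h call against Control was lost without replicate 1 of Control or of siMPS1 at that time and held in 8 of 10 other settings. A second EIF3J probe set gave 0.10 against siNeg and 0.02 against Control at 48 h.

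EIF3B, a scaffold subunit of the eIF3 core, was highest in siMPS1 at 6 h: 11.07 and 11.07, with 10.74 and 10.83 in siNeg and 10.79 and 10.67 in Control. It rose by 0.29 against siNeg (SE 0.07, adjusted p = 0.0246) and 0.34 against Control (adjusted p = 0.00543). The call against siNeg was lost without any of the 4 arrays compared (adjusted p from 0.0719 to 0.172), and that against Control without Control 6 h replicate 2 (0.0699). Quantile normalization left 0.12 against siNeg (adjusted p = 0.247), and median centring left 0.15 against Control (adjusted p = 0.0828). At 48 h it was 0.36 above Control (adjusted p = 0.00141, in all 28 settings) and 0.16 above siNeg (adjusted p = 0.113).

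EIF3K rose by 0.29 at 6 h (adjusted p = 0.0197), with 9.19 and 9.27 in siMPS1 and 8.91 and 8.96 in siNeg; Control, at 9.10 and 9.06, lay between them. Averaging the EIF3K probe sets left 0.04 (adjusted p = 0.690). EIF3M, at 10.60 and 10.54 in siMPS1 and 10.89 and 10.86 in siNeg, fell by 0.31 (adjusted p = 0.0396), and Control, at 10.60 and 10.71, overlapped siMPS1. EIF3E, another subunit, rose by 0.19 (adjusted p = 0.0455), in 8 of 18 settings that left out an array and 5 of 10 others. These 6 h calls of EIF3K and EIF3M were lost without siNeg 6 h replicate 1 or 2 or siMPS1 6 h replicate 2, with adjusted p up to 0.150 and 0.205, and that of EIF3M also without siMPS1 6 h replicate 1 or a Control 24 h array. The EIF3M call held in 8 of 10 other settings. EIF3A, EIF3F, EIF3G, EIF3I and EIF3L were not called between treatments at any time.

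The Alu probe set, which reads repeat-derived RNA, was 12.96 in siMPS1 at 6 h (12.88 to 13.03), 12.48 in siNeg (12.46 to 12.49) and 12.42 in Control (12.41 to 12.42). The 18S probe set read 10.39 in siMPS1 at 6 h (10.36 to 10.42), 10.11 in siNeg (10.09 to 10.13) and 9.75 in Control (9.73 to 9.77). Their part in the 6 h results was not tested.

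Among the 7 cap-binding and helicase genes, EIF4E, the cap-binding protein itself, fell at 48 h. It read 8.76 and 8.72 in siMPS1, 9.11 and 9.13 in siNeg and 9.04 and 9.14 in Control. The fall was 0.38 against siNeg (SE 0.07, adjusted p = 2.89e-04) and 0.35 against Control (SE 0.07, adjusted p = 7.48e-04), with siMPS1 below both groups. At 6 h EIF4E, at 8.93 and 8.78 in siMPS1, 8.99 and 9.04 in siNeg and 9.23 and 9.22 in Control, fell against Control by 0.37 (adjusted p = 0.00158). At 24 h siMPS1 read 9.21 and 9.11, siNeg 9.08 and 9.01 and Control 8.97 and 9.03, with no call. Other EIF4E probe sets gave -0.57 and 0.02 against siNeg at 48 h, and averaging probe sets left -0.19 against Control (adjusted p = 0.119).

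EIF4E2, a cap-binding relative that can repress translation, rose at 48 h by 0.23 against siNeg (adjusted p = 0.0371) and 0.35 against Control (SE 0.08, adjusted p = 0.00378). It read 8.33 and 8.44 in siMPS1, 8.15 and 8.16 in siNeg and 8.04 ± 0.05 (mean and SD, n = 2) in Control. The call against siNeg was lost without either siNeg 48 h array or siMPS1 48 h replicate 2, and held in 5 of 10 other settings. EIF4G1, the scaffold, was 0.29 above siNeg (SE 0.08, adjusted p = 0.0135), with 9.29 and 9.45 in siMPS1, 9.14 and 9.03 in siNeg and 9.18 and 9.21 in Control, against which the value was 0.18 (adjusted p = 0.127). The EIF4G1 call was lost without replicate 2 of either group compared; its second probe set gave 0.84.

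EIF4H, which stimulates the helicase eIF4A, fell against siNeg at 48 h by 0.27 (adjusted p = 0.00779), but siNeg had risen against Control by 0.39 (SE 0.07, adjusted p = 0.00163). It read 9.81 and 9.64 in siMPS1, 9.97 and 10.02 in siNeg and 9.60 and 9.62 in Control, and siMPS1 minus Control was 0.11 (adjusted p = 0.265). The fall against siNeg was not called without replicate 2 of either group. At 6 h EIF4H, at 10.05 and 9.97 in siMPS1 and 9.81 and 9.64 in siNeg, rose by 0.29 (adjusted p = 0.0231); the call was lost without siNeg 6 h replicate 2 (0.20, adjusted p = 0.215) or either siMPS1 6 h array, and with median centring (0.24, adjusted p = 0.0948). EIF4B, another helicase cofactor, was above Control at 48 h in siNeg (0.22, adjusted p = 0.0362) and in siMPS1 (0.19, adjusted p = 0.0359), at 8.32 and 8.23, and 8.25 and 8.24, with Control at 8.01 and 8.11. The EIF4B siNeg call was lost without Control 48 h replicate 1 (0.17, adjusted p = 0.242) or siNeg 48 h replicate 1 (0.17, adjusted p = 0.252), and its siMPS1 call without Control 48 h replicate 1 or either siMPS1 48 h array. Averaging probe sets left 0.08 in siNeg (adjusted p = 0.501) and ended the siMPS1 call, as did quantile normalization; each call held in 6 of 10 other settings. EIF4A3, the helicase of the exon junction complex, and EIF4G2 were not called between treatments at any time.

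The promoters of these genes are shown because 11 members share the E-box CACGTG, 5 of them cap-binding and helicase genes. RefSeq promoter sequences (GRCh38.p14, 250 bases before to 50 after the start) matched 35 of the 43 members. Of the 4 motifs searched on both strands, CACGTG was in 11 of the 35 (31.4%) and in 7.43% of 27305 promoters. CCGGAAG, an ETS-type motif, was in 9 (25.7%, against 10.7%), and TGACGTCA and TTGCATCA in 0 (1.98% and 0.923% of all promoters). None of these motifs contains another, and a match is a description of letters. The stretches below run 5′ to 3′ on the gene's strand and lie upstream of the start; capitals mark CACGTG in EIF4E (chr4:98929180-98929378, minus strand), EIF4G1 (chr3:184314442-184314564, plus strand) and EIF4H (chr7:74174137-74174182, plus strand), and CCGGAAG in EIF6 (chr20:35284792-35284838, minus strand).
EIF4E: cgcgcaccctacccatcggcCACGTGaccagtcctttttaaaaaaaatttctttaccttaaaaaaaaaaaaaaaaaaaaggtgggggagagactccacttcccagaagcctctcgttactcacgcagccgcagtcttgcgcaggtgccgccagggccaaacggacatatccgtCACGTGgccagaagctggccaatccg
EIF4G1: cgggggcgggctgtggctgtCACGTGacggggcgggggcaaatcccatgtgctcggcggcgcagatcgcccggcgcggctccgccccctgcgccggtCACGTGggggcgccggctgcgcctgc
EIF4H: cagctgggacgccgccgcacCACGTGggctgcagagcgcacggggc
EIF6: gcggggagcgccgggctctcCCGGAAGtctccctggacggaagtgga
EIF4E and EIF4G1 each hold 2 copies of CACGTG, at 225 and 72 and at 144 and 67 bases before the start, and EIF4H holds 1 at 199 bases. At 48 h against siNeg these 3 genes, picked from the 11 members with CACGTG, gave -0.38, 0.29 and -0.27. A link between the motif and the differences was not tested.

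Of the 3 eIF4E binding protein genes, 1 was called higher than siNeg at 6 h and 1 at 48 h, where 3.45% and 15.7% of all genes were called higher. EIF4EBP1, the 4E-BP1 repressor controlled by mTORC1, read 7.82 and 8.02 in siMPS1 at 6 h, 7.66 and 7.64 in siNeg and 7.69 and 7.60 in Control. It rose by 0.27 against siNeg (SE 0.08, adjusted p = 0.0447) and by 0.28 against Control (adjusted p = 0.0233), calls that held in 9 and 16 of 18 settings that left out an array and 5 and 8 of 10 others. EIF4ENIF1, which carries eIF4E into the nucleus, was called against siNeg at 48 h (0.38, SE 0.14, adjusted p = 0.0483), in 6 of 18 such settings and 4 of 10 others. EIF4EBP2 had a like value at 48 h with a larger error (0.32, SE 0.17, adjusted p = 0.187).

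Of 22 genes of mTORC1 and MNK signalling, which act on the 4E-BPs and eIF4E, 17 were tested. Against siNeg 1 was called at 6 h, lower (5.88%, where 7.70% of all genes were called); 4 at 24 h, 1 higher and 3 lower (23.5%, against 10.9%); and 5 at 48 h, 4 higher and 1 lower (29.4%, where 29.2% of all genes were called). RPS6KB1, the S6 kinase, fell at 6 h by 0.97 against siNeg (adjusted p = 0.00412) and 0.90 against Control (adjusted p = 0.00289). At 48 h MKNK2, an eIF4E kinase, rose by 0.74 against siNeg (adjusted p = 1.92e-07) and 0.68 against Control (adjusted p = 7.59e-07). DDIT4, an inhibitor of mTORC1, rose by 1.12 against siNeg (adjusted p = 4.47e-05), but siNeg stood 0.82 below Control (log2 fold change -0.82, adjusted p = 0.00263), and against Control the value was 0.30 (adjusted p = 0.183).

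The scanning and start codon genes gave smaller differences. EIF1, which guards start codon choice, read 12.02 ± 0.02 (mean and SD, n = 2) in siMPS1 at 6 h, 11.74 and 11.74 in siNeg and 11.81 and 11.87 in Control; it rose by 0.28 against siNeg (SE 0.07, adjusted p = 0.0218), with 0.18 against Control (adjusted p = 0.0874). With quantile normalization the EIF1 value was -0.01, and the call was lost without any of the 4 arrays compared (adjusted p from 0.0836 to 0.114). Averaging probe sets left 0.19 (adjusted p = 0.180). EIF1B, a close relative, fell against siNeg at 6 h by 0.38 (adjusted p = 0.0455) and 24 h by 0.36 (adjusted p = 0.0433). It read 7.78 and 7.80 in siMPS1 and 7.98 and 8.35 in siNeg at 6 h, and 8.19 and 7.98, and 8.44 and 8.46 at 24 h. At 48 h EIF1B, at 7.89 and 7.85 in siMPS1, 7.98 and 8.26 in siNeg and 8.32 and 8.17 in Control, was called against Control (-0.37, adjusted p = 0.0180), but not without Control 48 h replicate 1 or either siMPS1 48 h array. The 6 and 24 h calls held in 5 and 9 of 18 settings that left out an array and 4 and 6 of 10 others, with -0.19 (adjusted p = 0.416) at 6 h without siNeg 6 h replicate 2.

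EIF5, the factor that triggers GTP hydrolysis by eIF2, was higher than siNeg by 0.23 at the first time (adjusted p = 0.0443) and by 0.22 at the last (adjusted p = 0.0216). It read 11.10 and 10.98 in siMPS1 and 10.83 and 10.78 in siNeg at 6 h, 10.79 and 10.93, and 10.75 and 10.67 at 24 h, and 10.59 and 10.78, and 10.47 and 10.46 at 48 h. Its 5 probe sets disagreed: at 48 h the other 4 gave -0.34, 0.32, -0.41 and -0.17 against siNeg. The 6 h call held in 8 of 18 settings that left out an array and 4 of 10 others, with 0.08 under quantile normalization (adjusted p = 0.397) and 0.05 with probe sets averaged (adjusted p = 0.661). The EIF5 call at 48 h was lost without either siNeg 48 h array or siMPS1 48 h replicate 2 (0.12, adjusted p = 0.274), and averaging probe sets turned it to -0.08 (adjusted p = 0.313).

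EIF5B, which joins the ribosomal subunits, read 8.71 and 8.61 in siMPS1 at 24 h, 8.94 and 8.80 in siNeg and 9.07 ± 0.10 (mean and SD, n = 2) in Control. At 6 h EIF5B was 0.25 above Control (adjusted p = 0.0311), at 9.27 and 9.12 in siMPS1 and 8.94 and 8.96 in Control, a call lost without either Control 6 h array or siMPS1 6 h replicate 1 and held in 7 of 10 other settings. At 24 h it fell against Control by 0.41 (SE 0.07, adjusted p = 0.00147), and it was called higher than siNeg at 48 h (0.24, adjusted p = 0.0228); averaging its probe sets left -0.13 at 24 h (adjusted p = 0.472), and the 48 h call was lost without siNeg 48 h replicate 1 or either siMPS1 48 h array and held in 6 of 10 other settings. EIF1AX was not called between treatments at any time, nor was its near-identical Y-linked copy EIF1AY, whose differences from siNeg were -0.21, -0.01 and 0.11 at the 3 times; their probe sets can share signal.

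**Figure D4:**
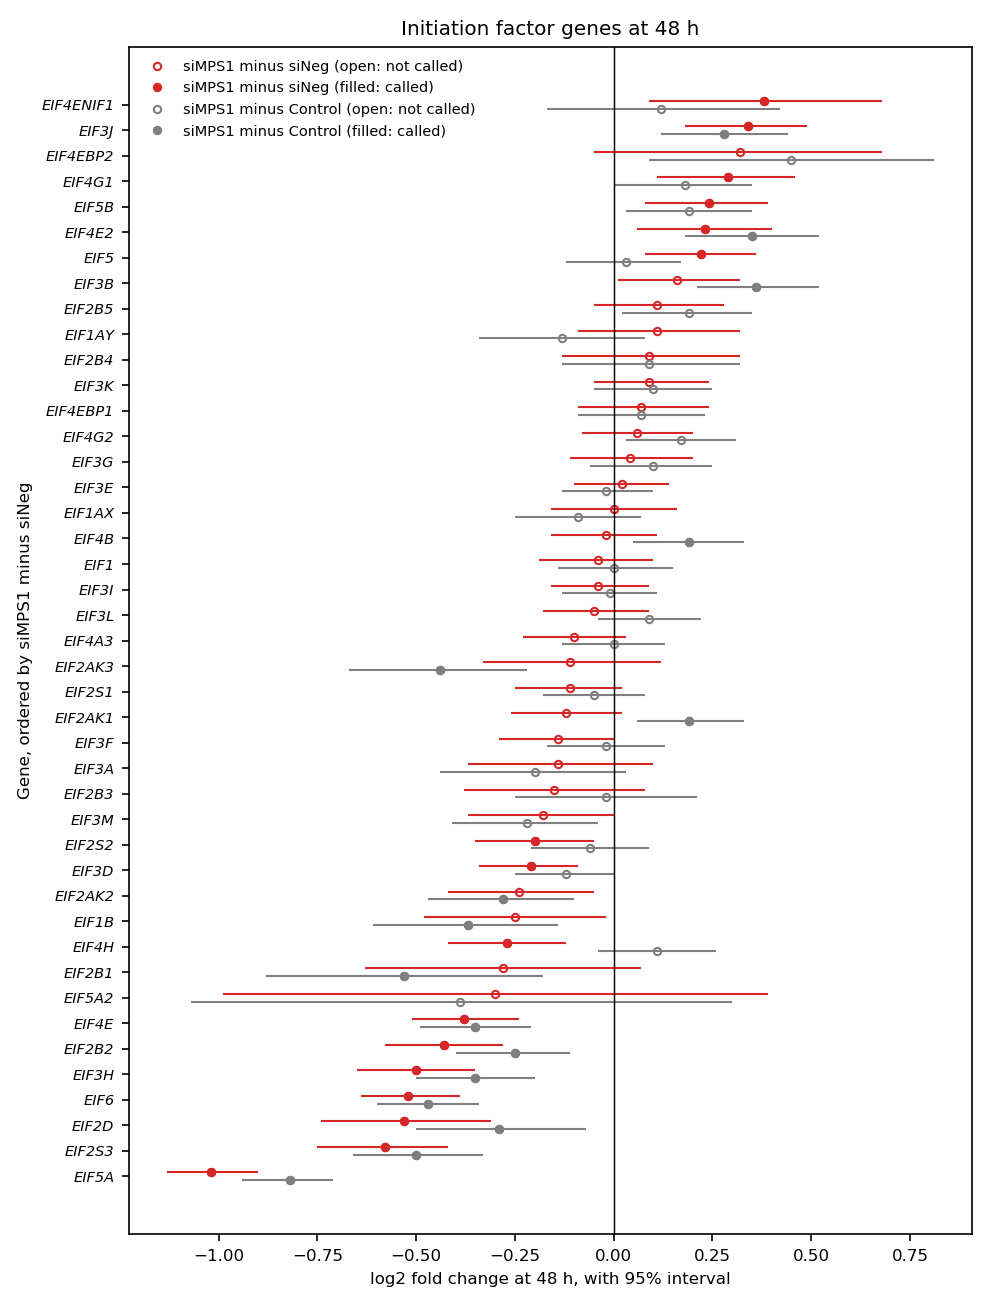
Log2 fold change at 48 h of each of the 43 genes (rows, ordered by siMPS1 minus siNeg), against siNeg (red) and Control (grey), with 95% intervals from limma, filled where called. EIF5A lies apart at the bottom, at -1.02 and -0.82, and the top called genes against siNeg are EIF4ENIF1, at 0.38, and EIF3J, at 0.34.

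The downstream steps of translation were listed for comparison. Of 12 tested elongation, termination and recycling genes, 1 was called against siNeg at 6 h (8.33%, where 7.70% of all genes were called), 0 at 24 h (1 at an unadjusted p under 0.05 in limma; 10.9% of all genes called), and 5 at 48 h (3 higher, 2 lower; 41.7%, against 29.2% of all genes). ABCE1, which recycles ribosomes, fell at 48 h by 0.42 against siNeg (adjusted p = 2.64e-05) and 0.50 against Control (adjusted p = 7.32e-06). GSPT1, the release factor eRF3a, fell by 0.41 against siNeg (adjusted p = 9.85e-04), while EEF1D, a subunit of the eEF1 exchange factor, rose by 0.37 (adjusted p = 0.00649). Of 11 tested poly(A) binding and cofactor genes, 2, 1 and 2 were called at the 3 times, or 18.2%, 9.09% and 18.2% where 7.70%, 10.9% and 29.2% of all genes were called. LARP1, which represses ribosomal protein messages, fell at 24 h by 0.48 against siNeg (adjusted p = 1.93e-04) and 0.64 against Control (adjusted p = 7.37e-06).

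Untreated cells also changed over time. In Control, 17 of the 43 genes were called between 6 and 24 h (9 higher, 8 lower; 39.5%, where 43.1% of all genes were called) and 6 between 24 and 48 h (4 higher, 2 lower; 14.0%, against 19.6%). Of all 7828 genes, 2125 and 626 were called higher and 1247 and 907 lower. With median centring the calls of the 43 genes were 4 higher and 18 lower, and 18 and 1 (share of all genes not given). The median of all genes moved from 0.12 to -0.04 and from -0.05 to 0.09. Beside EIF3J, EIF5A rose from 10.15 and 10.11 to 10.51 and 10.45 between 6 and 24 h (0.35, SE 0.06, adjusted p = 5.13e-05). EIF2AK2 rose from 6.82 and 6.95 to 7.44 and 7.36 (0.52, SE 0.09, adjusted p = 1.42e-04), and EIF4A3 fell from 9.86 and 9.84 to 9.47 and 9.48 (-0.37, SE 0.06, adjusted p = 9.01e-05). These 3 changes exceeded the spread between arrays. The 24 h count was 11 without either Control 6 h array and 10 without Control 24 h replicate 2.

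Between 24 and 48 h in Control, EIF4EBP1 rose from 7.87 and 7.99 to 8.23 and 8.22 (0.30, adjusted p = 0.0117), EIF6 from 9.13 and 9.14 to 9.29 and 9.38 (0.21, adjusted p = 0.0234) and EIF3E from 10.29 and 10.33 to 10.48 and 10.52 (0.19, adjusted p = 0.0233). Each of these 3 calls was lost without at least 3 of the 4 Control arrays, with the highest adjusted p at 0.115 for EIF4EBP1, 0.129 for EIF3E (both without Control 24 h replicate 1) and 0.181 for EIF6 (without Control 48 h replicate 2). The 48 h count was 3 without Control 24 h replicate 2 and 2 without any of the other 3 Control arrays.

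The difference between siMPS1 and siNeg itself changed with time for 11 genes. Between 6 and 24 h, 3 were called, all lower (6.98%, where 3.69% of all genes were called): EIF3H by -0.54 (SE 0.10, adjusted p = 0.00588), EIF2S1 by -0.45 (SE 0.09, adjusted p = 0.00863) and EIF6 by -0.33 (SE 0.09, adjusted p = 0.0404), the last in 7 of 18 settings that left out an array and 7 of 10 others. Between 24 and 48 h, 8 were called, 2 higher and 6 lower (18.6%, against 15.8%; 4 higher and 5 lower with quantile normalization). Of all genes, 1.89% and 8.93% were called higher and 1.80% and 6.83% lower. EIF5A gave -1.33 (SE 0.08, adjusted p = 6.07e-09), EIF2S3 -0.85 (SE 0.11, adjusted p = 5.62e-05) and EIF4E -0.49 (SE 0.09, adjusted p = 0.00144; -0.17 and adjusted p = 0.386 with probe sets averaged), while EIF2AK3 gave 0.67 (SE 0.15, adjusted p = 0.00551). The 48 h count was 5 without siNeg 24 h replicate 1. For EIF5A the siNeg arrays at 24 h, below Control as given above, enter this difference.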

How the data were processed

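The authors deposited log2 values per probe set of 18 Affymetrix expression arrays, with MAS5 named in the submitters' processing notes. Their linear signals had 2% trimmed means of 100.122 to 100.134 in every array, as scaled MAS5 signals do. Values were returned to the linear scale, 3 was added, and log2 was taken again, which understates changes of dim genes. Probe sets naming 1 gene and above the lowest 40% by mean were kept, with the brightest per gene (7828 genes). limma 3.58.1 in R 4.3.3 fitted 9 group means with an intensity trend (9 residual degrees of freedom), two-sided, with Benjamini-Hochberg adjustment; it was tested on simulated data. Arrays carry no read depth; their number limits the precision. Values in each array are given for the called members with the smallest p in each comparison and for members called in 1 direction at 2 or more times; those of EIF2D, EIF2B1, EIF2AK2, EIF4G1, EIF4E2, EIF4EBP1 and a few others fall outside that rule and were added after their values were seen. Alternatives changed the pseudocount, normalization, filter, probe set choice, trend, block and samples, or left out each array. Members and lists were chosen with earlier results of these data known.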

Additional observations from a re-analysis of the deposited data

Results flagged for a closer look

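Groups of 2 arrays are too small for a test of single outlying arrays. The results here are those where the difference between siMPS1 and siNeg differed between successive times by limma's test of that difference (adjusted p under 0.05).

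From 6 to 24 h the difference moved down for EIF3H, from 0.16 to -0.38 (-0.54), for EIF2S1, from 0.11 to -0.34 (-0.45), and for EIF6, from 0.06 to -0.27 (-0.33, adjusted p = 0.0404).

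From 24 to 48 h it moved from 0.31 to -1.02 for EIF5A (-1.33), from 0.27 to -0.58 for EIF2S3 (-0.85), from 0.11 to -0.38 for EIF4E (-0.49) and from 0.08 to -0.27 for EIF4H (-0.35). It moved from 0.20 to -0.12 for EIF2AK1 (-0.32) and from 0.18 to -0.10 for EIF4A3 (-0.28), neither of which was called at either time. It moved up from -0.77 to -0.11 for EIF2AK3 (0.67) and from -0.21 to 0.24 for EIF5B (0.44).

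Of these 11 calls, those of EIF3H, EIF2S1, EIF5A, EIF2S3 and EIF2AK3 held in all 28 alternative settings. The EIF6 call held in 7 of 18 settings that left out an array and 7 of 10 others, EIF2AK1 in 13 and 7, EIF4A3 in 12 and 7, and EIF4H in 14 and 8. Averaging probe sets ended the calls of EIF4E (-0.17, adjusted p = 0.386) and EIF5B, which held in all other settings tried.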

How the results depend on the processing

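The naming rule gave 62 results on 24 genes, and the values here are theirs; of all 103 calls of members, 37 held in all 28 alternatives, 41 without each array in turn and 49 in the 10 other settings. Of the 62, 31 kept their direction and side of the threshold in all 28 alternatives. Over the 62, 158 alternative values lost the call, 1 gained it (EIF1B at 48 h, -0.39 without siNeg 48 h replicate 1) and 8 changed sign, none of those a call under its alternative. The sign changes were EIF1 at 6 h (-0.01, quantile), EIF3D at 6 h (0.00 quantile, -0.02 median centring, -0.01 without siMPS1 6 h replicate 2), EIF6 at 6 h (0.00 without that array), EIF5 at 24 and 48 h (-0.04 and -0.08, mean of probe sets) and EIF2AK3 at 48 h (0.04 without siMPS1 48 h replicate 2), all against siNeg. Leaving out the partner array, siMPS1 6 h replicate 1, gave 0.06 for EIF3D and 0.11 for EIF6, and leaving out siMPS1 48 h replicate 1 gave -0.25 for EIF2AK3. The cause of changes under other settings was not tested.

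Counts of members called moved by over 1.5 times as follows. Against siNeg, the 6 h count of 10 became 6 with median centring, 4 with no filter and 1 with no trend, and the 48 h count of 16 became 10 with only the compared groups. Against Control, median centring gave 19 at 6 h (from 7) and 10 at 24 h (from 5). Between siNeg and Control at 6 h the count of 1 became 0 with quantile, no filter or no trend, 16 with median centring, 2 with the lowest 60% left out, and 3 with the mean of probe sets or only the compared groups. At 24 h the 1 became 2 with pseudocount 11, quantile or the mean of probe sets, 3 with median centring, the 60% filter or only the compared groups, and 0 with no trend. At 48 h the 5 became 3 with median centring or the mean, and 2 with no trend or only the compared groups. For the change in siMPS1 minus siNeg, the 3 from 6 to 24 h became 5 with the mean, and the 8 from 24 to 48 h became 5 with no trend or only the compared groups. In Control, the 17 became 11 with no trend, and the 6 became 19 with median centring, 10 with the mean, and 3 with no trend or only the compared groups.

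Leaving out each array in turn gave these ranges: against siNeg 1 to 11, 4 to 10 and 9 to 16 at 6, 24 and 48 h; against Control 2 to 8, 4 to 6 and 8 to 17; siNeg against Control 0 to 1, 0 to 2 and 1 to 6; the changes between times 2 to 4 and 5 to 8; and Control over time 10 to 19 and 2 to 6.

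Replicate numbers are shared across groups, but the deviations of same-numbered arrays correlated at -0.088 to 0.10, so they were not taken as pairs; with the replicate number as a block the counts were 8, 7 and 15 against siNeg and 7, 5 and 16 against Control. With 2 arrays a group, some small differences were called, and others may have been missed.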

Other observations

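Probe sets that name several genes were left out of the 43 genes, and their group means are given with no test. The helicase genes EIF4A1 and EIF4A2 host small nucleolar RNAs that their probe sets also name. The EIF4A2 probe set read 10.27 in siMPS1 at 48 h, 10.81 in siNeg and 10.76 in Control, with the siMPS1 arrays below both groups, and at 6 h 11.69, 11.54 and 11.41. The brightest EIF4A1 probe set read 12.19 in siMPS1 at 6 h, 11.87 in siNeg and 11.86 in Control, and 11.83, 11.92 and 11.84 at 48 h, while a dimmer one read 7.27, 7.65 and 6.62 at 48 h. For EIF3C and its copy EIF3CL, 3 probe sets gave siMPS1 minus Control of 0.37, 0.29 and 0.35 at 48 h. There siNeg minus Control was 0.31, 0.29 and 0.24, so both transfected groups read higher than Control at 48 h. At 24 h siNeg minus Control was instead -0.22, -0.21 and -0.23, and siMPS1 minus Control was -0.01, 0.05 and 0.23.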
